A study of Homo sapiens with 12 samples.

Results

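The cytarabine response of IKZF1 knockout SEM cells was measured across all expressed genes by RNA sequencing of 6 libraries: 3 from knockout (KO) cells given 1 µM cytarabine (AraC) for 16 h and 3 from untreated KO cells. Genes were kept when they reached 1 FPKM (fragments per kilobase of gene, scaled to library size) in at least 3 of these 6 libraries, which held for 12434 of the 58735 genes in the deposited table. SEM, an established line of B cell precursor leukaemia, carries a KMT2A-AFF1 fusion, so all groups share that fusion. The series also holds 3 AraC-treated and 3 untreated wild-type (WT) SEM libraries, which gave the test of whether the effect in KO differed from that in WT. By its title the study asks how IKZF1 deletion relates to resistance to AraC.

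AraC is a cytidine analogue. Cells take it up through a nucleoside transporter, phosphorylate it step by step beginning with deoxycytidine kinase, and build it into DNA, where it slows chain elongation and stalls replication forks. Stalled forks activate the ATR and CHK1 checkpoint kinases, which hold cells before mitosis, and Ikaros, the product of IKZF1, is a DNA-binding regulator of lymphoid cells that acts partly through the NuRD chromatin complex.

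The labels name 1 knockout line, so its differences from WT cannot be told apart from differences between lines. They do not say that replicates came from separate cultures, so the p-values rest on spread among libraries that may be only technical. IKZF1 RNA was 14.2, 14.3 and 14.98 FPKM in the KO AraC libraries, against 20.5, 21.5 and 21.3 FPKM in the KO untreated libraries, and 14.2, 14.8 and 15.3 FPKM in the WT AraC libraries, against 22.1, 22.6 and 22.4 FPKM in the WT untreated libraries, so the gene total does not check the genotype label and KO stands here for the labelled genotype. The 6 KO libraries held 16373922 to 16913784 reads assigned to genes. KO AraC replicate 3 stood apart: its read counts differed from replicates 1 and 2 by a chi-square of, per degree of freedom, 6.43 and 7.95, against 2.52 between replicates 1 and 2. The mitochondrial transcript MT-ND6 had 727, 855 and 266 FPKM in the KO AraC libraries, against 829, 828 and 803 FPKM in the KO untreated libraries, and the signal recognition particle RNA RN7SL2 had 383, 331 and 39.1 FPKM in the KO AraC libraries, against 400.5, 617 and 332 FPKM in the KO untreated libraries. Both were low in replicate 3, and what set it apart was not tested. Of 12 B cell precursor markers, 10 were at 1 FPKM or more in all 6 libraries, and BLNK and DNTT were under 0.1 FPKM in all of them. Of the markers of other cell types, 9 of 12 for T and NK cells, 7 of 10 myeloid, 9 of 10 erythroid and platelet and 9 of 12 stromal were under 0.1 FPKM in all 6. TRAC and NKG7 of the T and NK cell list and PDGFRB and PECAM1 of the stromal list were at 1 FPKM or more in all 6. The T and NK cell list summed to 88.5 to 94.5 FPKM in KO AraC and 86.2 to 91.8 FPKM in KO untreated libraries, and the stromal list to 8.55 to 9.23 FPKM in KO AraC and 6.93 to 8.0 FPKM in KO untreated libraries. In these bulk samples fewer cells of a kind and less RNA per cell cannot be told apart.

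AraC changed the RNA of a large share of genes in KO cells. With limma and Benjamini-Hochberg adjustment at 0.05, 2545 genes (20.5%) were higher and 3273 (26.3%) lower in KO AraC than in KO untreated libraries, with a median log2 difference of -0.03 over all 12434. Changes of at least 2-fold were fewer, with 156 genes (1.25%) higher and 60 (0.483%) lower. Of the 12434 genes, 218 were under 1 FPKM in all 3 KO untreated libraries and 53 in all 3 KO AraC libraries, so they passed the filter only through the group where they are high; without them 89 genes were at least 2-fold higher and 43 lower. Without KO AraC replicate 3 the counts were 2373 higher and 3296 lower, of which 2219 and 2968 were shared with the full set. The deposited FPKM rest on a library size that was, on average, 1.03 times the recovered reads in KO AraC and 0.942 times in KO untreated libraries. The share of higher genes among the calls was 43.7% on the deposited scale, 69.3% as TPM and 67.3% with plain read totals. Those scalings moved the all-gene median to 0.09 and 0.08, so a list is read against the all-gene median of its own scale. Small differences of single genes can depend on the scale in the same way. Protein-coding genes gave 2365 of the higher and 2974 of the lower calls.

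Targets of the stress factor ATF4 and genes of entry into S phase were among the most increased. TRIB3, a pseudokinase that feeds back on ATF4 and AKT, had 35.8, 36.4 and 36.1 FPKM in the KO AraC libraries, against 3.795, 3.54 and 2.87 FPKM in the KO untreated libraries. The groups lay far apart, and the log2 difference was 3.24 ± 0.08 (SE, limma adjusted p = 7.5e-10). ATF5, a stress-induced bZIP transcription factor, had 67.4, 64.3 and 72.02 FPKM in the KO AraC libraries, against 11.97, 11.3 and 11.4 FPKM in the KO untreated libraries (log2 2.50 ± 0.06, adjusted p = 7.5e-10); its gene body overlaps that of NUP62. CHAC1, which degrades glutathione, had 6.38, 5.27 and 5.21 FPKM in the KO AraC libraries, against 0.615, 0.5997 and 0.676 FPKM in the KO untreated libraries, a log2 difference of 2.43 ± 0.12 (adjusted p = 8.1e-08). All 3 were high in every treated library, and CHAC1 passed the filter only through those. CCNE2 and CCNE1, the E-type cyclins that drive CDK2 at the start of S phase, differed by 1.99 ± 0.05 and 1.88 ± 0.10, and CCNE2 had 32.3, 32.3 and 32.9 FPKM in the KO AraC libraries, against 7.32, 8.26 and 7.94 FPKM in the KO untreated libraries. The CCNE2 gene body overlaps NDUFAF6 and INTS8.

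The rest of the 15 most increased protein-coding genes ranged from 1.69 to 2.23 on the log2 scale. They included CLGN, an endoplasmic reticulum chaperone under 1 FPKM in all untreated libraries (2.23), SPNS3, a sphingolipid transporter homologue (2.15), the stress factor ATF3 (2.01), JUN (1.87), the kinase MAP3K6 (1.79), the leucine sensor SESN2 (1.74), MNS1 (1.73), the netrin receptor UNC5B (1.72) and the RNA-binding PCBP4 (1.69). SPNS3 had 14.2, 13.8 and 15.2 FPKM in the KO AraC libraries, against 2.85, 2.69 and 3.04 FPKM in the KO untreated libraries. The 15 were picked only among genes whose treated and untreated libraries did not overlap.

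Genes of mitosis and histones were among the most decreased. PLK1, the kinase that drives mitotic entry, had 4.72, 4.25 and 4.43 FPKM in the KO AraC libraries, against 25.6, 25.2 and 24.1 FPKM in the KO untreated libraries (log2 -2.36 ± 0.05, adjusted p = 9.7e-11). KIF20A, a kinesin of the central spindle, had 8.06, 8.18 and 8.17 FPKM in the KO AraC libraries, against 32.3, 32.9 and 32.96 FPKM in the KO untreated libraries (log2 -1.94 ± 0.03, adjusted p = 2.8e-11). Both were low in all treated libraries. PIF1, a DNA helicase, had 0.517, 0.576 and 0.246 FPKM in the KO AraC libraries, against 6.44, 5.78 and 5.73 FPKM in the KO untreated libraries, a log2 difference of -2.79 ± 0.13 that understates the change because the treated values lie near the pseudocount of 0.5; it passed the filter only through the untreated libraries. The linker histone gene HIST1H1C had 1.61, 1.72 and 1.59 FPKM in the KO AraC libraries, against 10.4, 9.21 and 11.53 FPKM in the KO untreated libraries (log2 -2.34 ± 0.18, adjusted p = 2.3e-06). No overlap of the groups was a condition for choosing the most decreased genes as well. CCNB1, the mitotic cyclin, differed by -1.72, CDC20, the activator of the anaphase-promoting complex, by -1.67, and the spindle kinase AURKA by -1.47. Outside mitosis and histones, MYC had 65.5, 68.5 and 71.4 FPKM in the KO AraC libraries, against 165, 159 and 165 FPKM in the KO untreated libraries (log2 -1.25 ± 0.05), and the fucosyltransferase FUT7 fell by 1.26. FAM72D (-1.40) has near-identical copies, so its reads may be split among them.

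**Figure D1:**
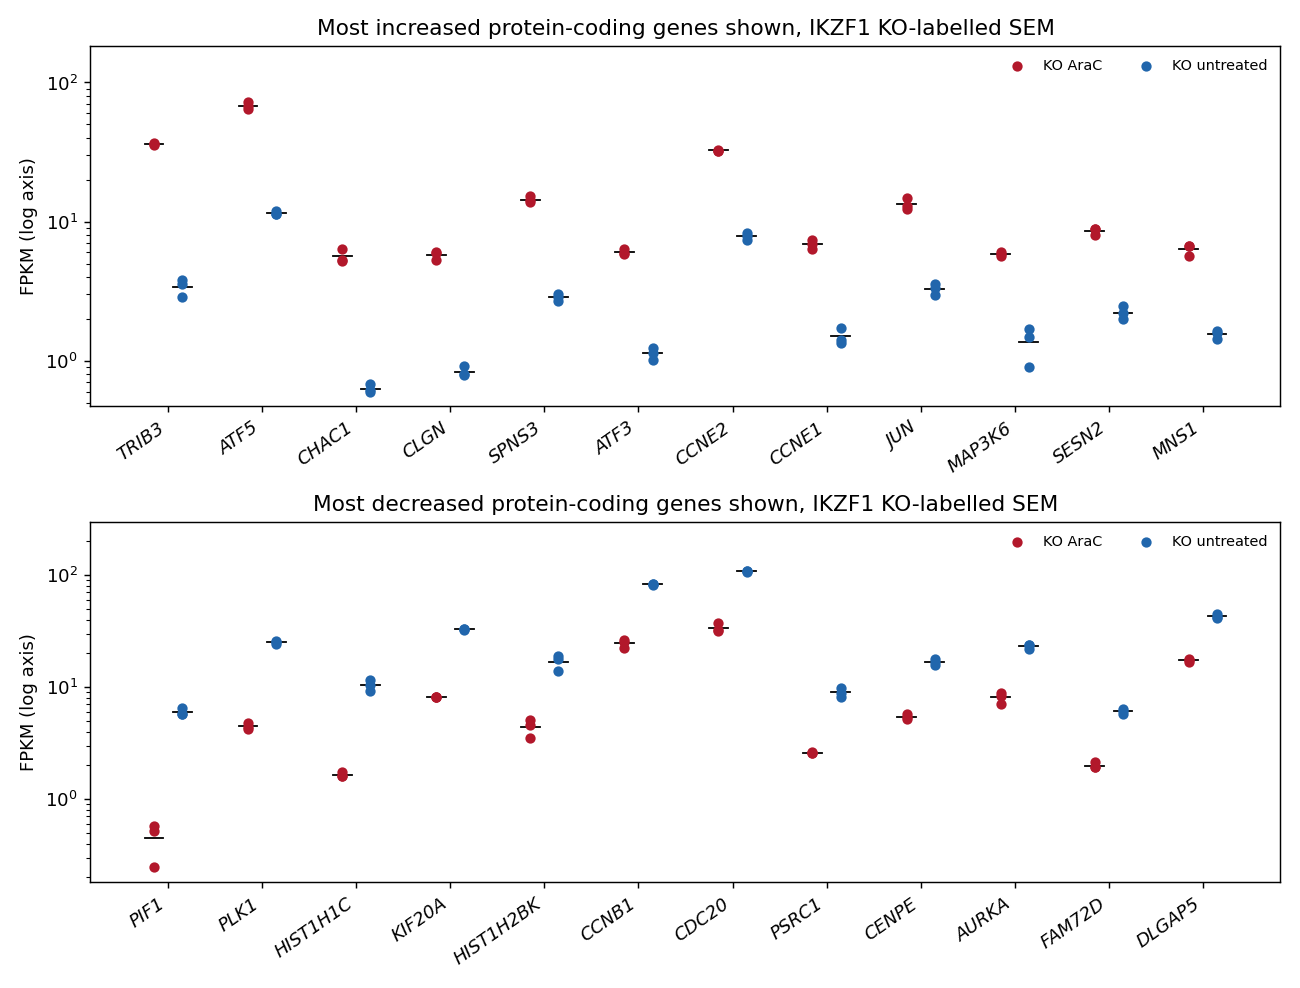
FPKM on a log axis in each KO AraC library (red) and each KO untreated library (blue) for 12 of the protein-coding genes that rose most and 12 of those that fell most, with black bars at the means. The 24 were chosen among genes whose 2 groups did not overlap. TRIB3 at the left of the upper panel lies at 35.8 to 36.4 FPKM with AraC and 2.87 to 3.80 FPKM without.

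Promoters are shown for the 3 most increased and 3 most decreased of the named genes on the gene lists. Each is 300 bases of GRCh38.p14 from RefSeq, on the gene's own strand from 250 bases before its start, at chr20:381045-381344 (TRIB3), chr19:49928656-49928955 (ATF5), chr15:40953221-40953520 (CHAC1), chr15:64825598-64825897 (PIF1), chr16:23678639-23678938 (PLK1) and chr6:26056421-26056720 (HIST1H1C, H1-2 in RefSeq). Capitals mark matches, on either strand, to TGATGNAA (the composite element that ATF4 binds with C/EBP partners), CCAAT (the NF-Y box), TTTGAA (the cell cycle homology region) or the E2F letters TTTGGCGC, TTTCCCGC, TTTGGCGG and TTTCGCGC.
TRIB3: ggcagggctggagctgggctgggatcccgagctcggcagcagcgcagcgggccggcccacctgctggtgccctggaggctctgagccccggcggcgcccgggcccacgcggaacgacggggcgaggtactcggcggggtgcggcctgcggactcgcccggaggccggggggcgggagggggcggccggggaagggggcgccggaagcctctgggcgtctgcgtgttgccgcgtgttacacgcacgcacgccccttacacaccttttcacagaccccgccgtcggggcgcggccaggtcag
ATF5: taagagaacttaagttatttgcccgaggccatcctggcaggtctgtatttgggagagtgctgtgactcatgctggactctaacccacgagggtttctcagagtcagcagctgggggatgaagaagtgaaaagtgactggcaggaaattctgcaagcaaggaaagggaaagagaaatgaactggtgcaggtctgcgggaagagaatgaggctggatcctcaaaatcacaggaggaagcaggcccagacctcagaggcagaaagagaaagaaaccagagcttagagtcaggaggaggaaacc
CHAC1: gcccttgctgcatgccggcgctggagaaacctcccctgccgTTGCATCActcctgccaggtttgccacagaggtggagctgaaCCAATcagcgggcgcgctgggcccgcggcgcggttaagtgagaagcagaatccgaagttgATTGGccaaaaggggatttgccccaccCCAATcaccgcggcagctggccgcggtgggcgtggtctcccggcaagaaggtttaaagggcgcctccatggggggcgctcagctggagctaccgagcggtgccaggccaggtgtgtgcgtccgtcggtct
PIF1: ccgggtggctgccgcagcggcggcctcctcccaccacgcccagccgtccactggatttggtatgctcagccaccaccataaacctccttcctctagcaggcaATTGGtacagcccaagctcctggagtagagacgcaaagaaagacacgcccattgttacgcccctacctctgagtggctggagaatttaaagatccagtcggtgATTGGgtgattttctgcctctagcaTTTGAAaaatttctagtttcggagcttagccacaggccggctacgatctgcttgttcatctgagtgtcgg
PLK1: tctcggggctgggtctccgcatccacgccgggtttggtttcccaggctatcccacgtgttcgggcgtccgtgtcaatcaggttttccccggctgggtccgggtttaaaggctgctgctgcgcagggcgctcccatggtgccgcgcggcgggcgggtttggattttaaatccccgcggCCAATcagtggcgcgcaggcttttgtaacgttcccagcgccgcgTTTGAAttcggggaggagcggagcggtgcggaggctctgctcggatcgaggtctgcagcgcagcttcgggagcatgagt
HIST1H1C: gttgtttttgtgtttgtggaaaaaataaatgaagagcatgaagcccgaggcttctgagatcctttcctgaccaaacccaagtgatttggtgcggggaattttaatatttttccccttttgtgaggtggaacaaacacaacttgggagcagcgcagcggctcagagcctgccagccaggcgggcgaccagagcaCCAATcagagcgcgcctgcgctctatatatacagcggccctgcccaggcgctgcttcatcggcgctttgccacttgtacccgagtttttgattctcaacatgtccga

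The CHAC1 window held an ATF4 element and 3 CCAAT matches. The PLK1 and PIF1 windows each held a cell cycle homology region within 30 bases before the start, with CCAAT matches upstream of it, and the HIST1H1C window held 1 CCAAT match. None of these letters were found in the TRIB3 and ATF5 windows, and no match overlapped another. Of 27305 promoters in the RefSeq table, 3.67% held the ATF4 element, 35.7% CCAAT, 15.4% TTTGAA and 3.43% an E2F match. Among the 8695 tested genes with an entry the shares were 1.6%, 37.9%, 9.57% and 6.1%. Of 35 G2/M genes that fell and had an entry, 23 held TTTGAA and 29 CCAAT. Of 25 replication genes that rose, 14 held an E2F match and 0 held TTTGAA. Of 22 fork protection, checkpoint and homologous recombination genes that rose, 3 held an E2F match and 2 held TTTGAA. Of 17 stress response genes that rose, 2 held the ATF4 element. List members that did not change were not counted, so the shares do not set apart those that did. These are matches of letters in a window, not measured binding.

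Most genes of the integrated stress response rose. In this pathway kinases that sense nutrient or protein stress phosphorylate eIF2, which lets ATF4 be translated, and ATF4 with CHOP switches on genes for amino acid supply and feedback. Of 22 tested ATF4 and CHOP targets 19 rose and 2 fell, 9 of them rose at least 2-fold, and the list median was 0.58. Without CHAC1 and JDP2, which passed the filter only through the treated libraries, 17 of 20 rose, 7 at least 2-fold, and the median was 0.53. DDIT3, which encodes CHOP itself, had 28.04, 29.4 and 31.97 FPKM in the KO AraC libraries, against 8.23, 9.59 and 9.39 FPKM in the KO untreated libraries (log2 1.66 ± 0.10). PPP1R15A, the phosphatase subunit that reverses eIF2 phosphorylation, had 27.4, 27.9 and 27.8 FPKM in the KO AraC libraries, against 9.96, 10.8 and 9.35 FPKM in the KO untreated libraries (log2 1.43 ± 0.09). Both were higher in all treated libraries without overlap. JDP2, a bZIP repressor, differed by 2.12 and CEBPB by 1.22. ATF4 RNA itself was lower, with 149, 151 and 155 FPKM in the KO AraC libraries, against 173, 173 and 178 FPKM in the KO untreated libraries (log2 -0.20 ± 0.03, adjusted p = 0.00049), as was ERO1A (-0.20), a disulfide oxidase. With all-gene medians of -0.03 on this scale and 0.09 as TPM, falls as small as those of ATF4 and ERO1A can depend on the scale. ASNS and NUPR1 were below the filter.

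Among enzymes and carriers that supply amino acids more genes rose than fell. Of 12 genes of serine, folate and proline synthesis, 7 rose and 3 fell, with a median of 0.38. PSAT1, the aminotransferase of serine synthesis, had 107, 107 and 114 FPKM in the KO AraC libraries, against 71.2, 77.7 and 80.5 FPKM in the KO untreated libraries (log2 0.51 ± 0.06), and GPT2, a mitochondrial alanine aminotransferase, differed by 0.93. PYCR1, of proline synthesis, fell by 0.55. Of 12 amino acid transporters 7 rose and 4 fell (median 0.14). Without SLC7A11 and SLC6A9, which passed the filter only through the treated libraries, 5 of 10 rose and 4 fell, with a median of 0.06. The cystine carrier SLC7A11 had 1.53, 1.59 and 1.55 FPKM in the KO AraC libraries, against 0.361, 0.391 and 0.4001 FPKM in the KO untreated libraries (log2 1.22 ± 0.09). Of 20 cytosolic aminoacyl-tRNA synthetases, which load tRNAs with amino acids, only WARS, SARS and AARS rose, and 13 fell (median -0.19). WARS had 28.5, 29.9 and 31.5 FPKM in the KO AraC libraries, against 9.58, 9.59 and 10.3 FPKM in the KO untreated libraries, a log2 difference of 1.56 ± 0.06. These 3 were high in each treated library, whereas VARS (-0.50) and LARS (-0.29) were low.

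Protein folding genes went both ways. In the endoplasmic reticulum list 7 of 23 rose (30.4%) and 8 fell (34.8%), beside 20.5% and 26.3% of all genes. ERN1 and CLGN passed the filter only through the treated libraries, and without them 5 of 21 rose. The stress sensor ERN1 (IRE1) had 3.08, 3.003 and 3.13 FPKM in the KO AraC libraries, against 0.635, 0.6398 and 0.629 FPKM in the KO untreated libraries (log2 1.65 ± 0.08), and HERPUD1 and EDEM1, which serve degradation of misfolded proteins, rose by 0.81 and 0.58. The chaperone HSP90B1 fell by 0.52. The list median was -0.04 on the deposited scale and 0.09 as TPM, beside all-gene medians of -0.03 and 0.09. Of 15 heat shock genes, cytosolic but for the mitochondrial chaperonins HSPD1 and HSPE1, 12 fell and 3 did not pass, with a median of -0.45. HSPA8, the constitutive HSP70, had 273, 269 and 303 FPKM in the KO AraC libraries, against 490.5, 496 and 527 FPKM in the KO untreated libraries (log2 -0.84 ± 0.05), and HSP90AB1 differed by -0.64. Among 14 NRF2 antioxidant genes 5 rose (35.7%) and 3 fell (21.4%). The quinone reductase NQO1 differed by 0.83 and the peroxiredoxin PRDX1 by -0.68. The NRF2 list median of 0.02 was -0.03 without KO AraC replicate 3.

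Mitotic RNAs fell broadly while a small group did not. Of 59 tested G2/M genes 42 fell, 4 rose and 13 did not pass, with a median of -0.47, and 11 fell at least 2-fold. Without PIF1, which passed the filter only through the untreated libraries, 41 of 58 fell, 10 at least 2-fold, with a median of -0.47. CENPE, a kinetochore motor, had 5.79, 5.36 and 5.203 FPKM in the KO AraC libraries, against 15.7, 17.7 and 16.6 FPKM in the KO untreated libraries (log2 -1.53 ± 0.06). The low treated values did not reach the untreated ones. CCNA2, the cyclin of S phase and G2, fell by only 0.23, and CDK1 (-0.07, 95% interval -0.16 to 0.02), AURKB (-0.03) and MKI67 (-0.10) did not pass. The 4 that rose were SKA1 (0.57) and SKA3 (0.33) of the kinetochore, PKMYT1 (0.49), which inhibits CDK1, and FOXM1 (0.41), a transcription factor of mitotic genes. FOXM1 had 35.9, 34.9 and 36.1 FPKM in the KO AraC libraries, against 28.3, 25.8 and 26.3 FPKM in the KO untreated libraries.

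Regulators at the G1/S boundary were mixed, with 12 of 26 higher (46.2%) and 7 lower (26.9%), beside 20.5% and 26.3% of all genes. Their median of -0.02 was 0.11 as TPM. Beside the E-type cyclins, the repressive E2F family members E2F8 and E2F7 rose. E2F8 had 34.5, 32.2 and 33.4 FPKM in the KO AraC libraries, against 15.4, 14.1 and 14.7 FPKM in the KO untreated libraries (log2 1.15 ± 0.05), and E2F7 differed by 0.89. CDKN1A, the CDK inhibitor p21, had 74.1, 71.6 and 73.9 FPKM in the KO AraC libraries, against 50.5, 48.6 and 48.8 FPKM in the KO untreated libraries (log2 0.56 ± 0.04), with every treated library above every untreated one. E2F5 fell by 1.04 and CDKN1B, the inhibitor p27, by 0.35, whereas RB1 differed by -0.03 (adjusted p = 0.68).

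Replication and fork repair genes rose more often than they fell. Of 51 genes of DNA replication and origin licensing 27 rose and 7 fell, with a median of 0.14. CDC6, which loads the MCM helicase, had 30.1, 31.6 and 30.9 FPKM in the KO AraC libraries, against 18.4, 18.6 and 18.9 FPKM in the KO untreated libraries (log2 0.71 ± 0.03), and its partner CDT1 differed by 0.70. The helicase subunit MCM6 had 55.2, 56.9 and 58.4 FPKM in the KO AraC libraries, against 84.2, 85.8 and 88.6 FPKM in the KO untreated libraries (log2 -0.60 ± 0.04). These go in opposite directions without overlap, while PCNA (0.01) and MCM2 (-0.01) did not pass. Of 47 genes of fork protection, checkpoint and homologous recombination 24 rose and 6 fell (median 0.14). EXO1, a nuclease that resects DNA ends, had 33.4, 31.7 and 35.6 FPKM in the KO AraC libraries, against 15.8, 16.3 and 18.7 FPKM in the KO untreated libraries (log2 0.97 ± 0.07), and the Fanconi anaemia genes FANCG and FANCI differed by 0.73 and 0.62. BRCA1 and BRCA2 rose by 0.28 and 0.27. The checkpoint kinase CHEK1 fell by 0.16 and CHEK2 by 0.50, and ATR did not pass (-0.16, limma adjusted p = 0.071). A difference as small as that of CHEK1 can depend on the scale, since the all-gene median was -0.03 here and 0.09 as TPM.

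Of 65 listed replication-dependent histone genes, whose messages end in a stem-loop and not in a poly(A) tail, 55 did not pass the filter. The 10 that did fell, 9 of them at least 2-fold, with a median of -1.42; 6 of them were under 1 FPKM in every KO AraC library and passed through the untreated group alone, so nothing is read from this count. HIST1H2BK had 5.12, 4.59 and 3.48 FPKM in the KO AraC libraries, against 18.8, 17.9 and 13.9 FPKM in the KO untreated libraries (log2 -1.83 ± 0.21), and HIST2H2AC differed by -1.03. The other 8 tested members rest on low values, with means of 1.43 to 3.53 FPKM in KO untreated libraries, and HIST2H2AC was the member whose groups overlapped.

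Some genes of deoxynucleotide and pyrimidine supply rose, and fewer fell. RRM2, the regulated subunit of ribonucleotide reductase, had 102, 97.7 and 104 FPKM in the KO AraC libraries, against 44.03, 46.6 and 46.99 FPKM in the KO untreated libraries (log2 1.14 ± 0.04, adjusted p = 1.2e-08), and RRM1, its partner, differed by 0.58. TYMS, thymidylate synthase, had 301, 298 and 304 FPKM in the KO AraC libraries, against 197, 199 and 196 FPKM in the KO untreated libraries (log2 0.61 ± 0.03), and thymidine kinase TK1 had 131, 135 and 145 FPKM in the KO AraC libraries, against 90.4, 87.2 and 84.7 FPKM in the KO untreated libraries (log2 0.65 ± 0.05). All were higher in each treated library. Over 19 genes of dNTP and pyrimidine synthesis 7 rose (36.8%) and 5 fell (26.3%), beside 20.5% and 26.3% of all genes. NME1, a nucleoside diphosphate kinase, fell by 0.75 and the pyrimidine enzyme DHODH by 0.47. In de novo purine synthesis 9 of 12 fell and 1 rose (median -0.29). That member was PRPS2, a ribose phosphate kinase, with 13.9, 14.2 and 16.9 FPKM in the KO AraC libraries, against 8.69, 9.37 and 9.86 FPKM in the KO untreated libraries (log2 0.65 ± 0.07).

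**Figure D2:**
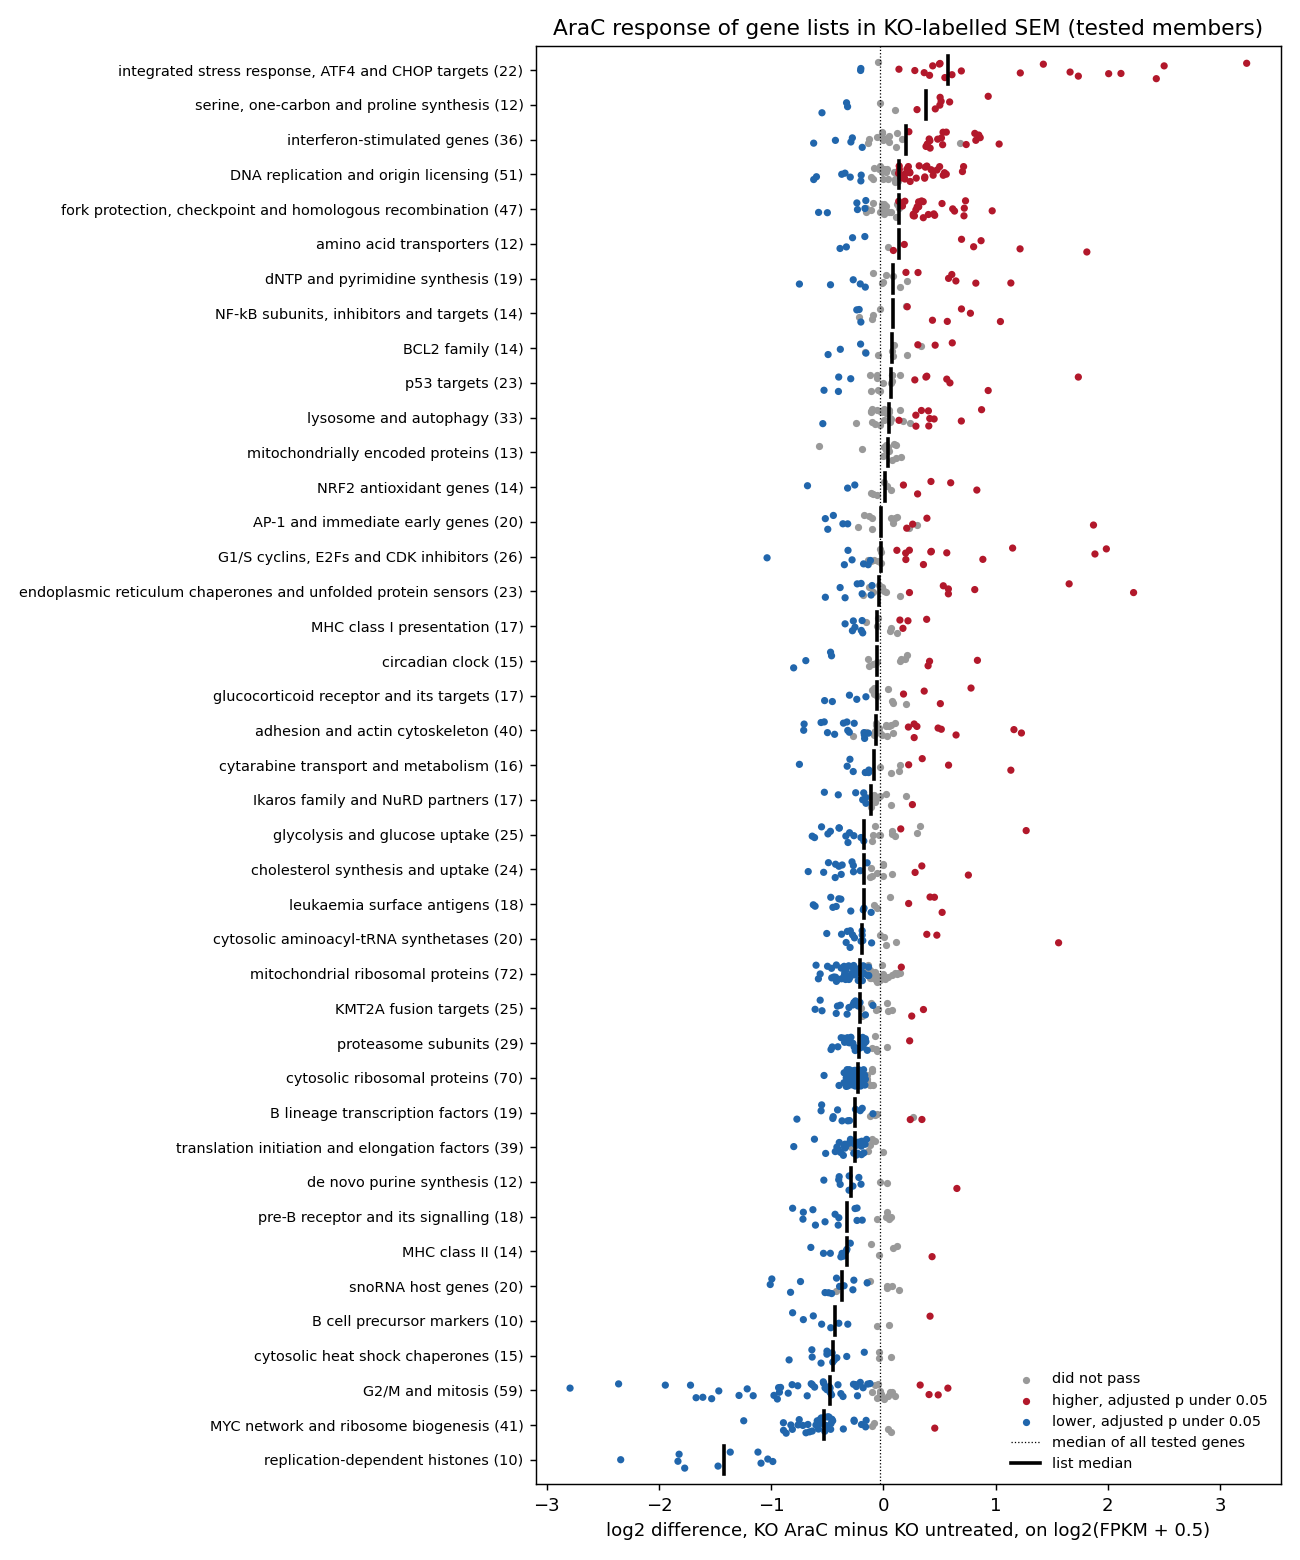
Log2 difference between KO AraC and KO untreated libraries for the tested members of each gene list with at least 10 tested members, with the number tested in brackets. Points are genes, coloured by whether they passed an adjusted p of 0.05 as higher (red), lower (blue) or not (grey), thick bars are list medians and the dotted line is the all-gene median of -0.03; the stress response list has a median of 0.58, and 6 of the 10 histone genes passed the filter only through the untreated libraries.

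Most genes of growth and protein synthesis fell, by small amounts. MYC and 35 other members of a list of 41 genes of the MYC network and ribosome biogenesis fell, and 1 rose, with a median of -0.53. The member that rose was MXD1 (0.46), which competes with MYC for its partner MAX. NOP16, a nucleolar protein, had 12.9, 13.2 and 13.7 FPKM in the KO AraC libraries, against 24.3, 25.4 and 25.3 FPKM in the KO untreated libraries (log2 -0.89 ± 0.04), and NCL, nucleolin, differed by -0.67. Of 70 cytosolic ribosomal protein genes 57 fell and 13 did not pass (median -0.23); without KO AraC replicate 3, whose own list median was -0.11 against -0.26 and -0.32 in the other two, 69 fell. Their direction depends on scaling, since the median was 0.02 under quantile normalization. RPL5 had 342, 324 and 388 FPKM in the KO AraC libraries, against 426, 455 and 461 FPKM in the KO untreated libraries (log2 -0.35 ± 0.06), a call lost under quantile normalization.

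Of 39 translation initiation and elongation factors 33 fell and 6 did not pass (median -0.26), led by EIF5A, with 154, 152 and 168 FPKM in the KO AraC libraries, against 271, 272 and 283 FPKM in the KO untreated libraries (log2 -0.80 ± 0.05). Of 72 mitochondrial ribosomal proteins 44 fell and 1 rose (median -0.21), and of 29 proteasome subunits 23 fell and 1 rose (median -0.21). The 13 proteins encoded by mitochondrial DNA gave 0 calls with limma (median 0.04). At an unadjusted p under 0.05 limma gave 1, MT-ND5 (-0.20), and limma-voom on recovered reads called 2, MT-ND5 and MT-ND6. Mitochondrial genes took 2.73 to 3.11% of reads in KO AraC and 2.44 to 2.69% in KO untreated libraries. Among 20 snoRNA host genes 13 fell and 7 did not pass (median -0.37), and SNHG3 had 10.98, 11.2 and 8.47 FPKM in the KO AraC libraries, against 22.5, 20.4 and 19.8 FPKM in the KO untreated libraries (log2 -1.01 ± 0.09).

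Genes of sterol and sugar metabolism were lower in part. Of 24 genes of cholesterol synthesis and uptake 13 fell and 3 rose (median -0.18). INSIG1, a sterol sensor partner, had 69.7, 69.8 and 70.1 FPKM in the KO AraC libraries, against 98.3, 102 and 104 FPKM in the KO untreated libraries (log2 -0.53 ± 0.04). Of 25 glycolysis genes 13 fell and 2 rose, with a median of -0.18 that was 0.00 under quantile normalization. LDHA, lactate dehydrogenase, had 116, 107 and 122 FPKM in the KO AraC libraries, against 177, 178 and 173 FPKM in the KO untreated libraries (log2 -0.61 ± 0.06), whereas the enolase ENO2 rose, with 8.105, 7.61 and 7.31 FPKM in the KO AraC libraries, against 3.16, 2.63 and 2.88 FPKM in the KO untreated libraries (log2 1.27 ± 0.07). In lysosome and autophagy 10 of 33 rose and 1 fell (median 0.05), with the autophagosome proteins MAP1LC3B (0.69) and WIPI1 (0.87) leading.

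Genes that move, activate or inactivate AraC went both ways. Of 16 tested members 4 rose (25%) and 7 fell (43.8%), beside 20.5% and 26.3% of all genes. Their median of -0.08 was 0.04 as TPM. The largest changes were those of RRM2 (1.14), NME1 (-0.75) and RRM1 (0.58), described above with nucleotide supply. DCK, the kinase that activates AraC, had 54.9, 56.96 and 61.2 FPKM in the KO AraC libraries, against 48.95, 57.7 and 58.8 FPKM in the KO untreated libraries. The groups overlapped (log2 0.07 ± 0.07, adjusted p = 0.46, 95% interval -0.09 to 0.22). SLC29A1, the uptake transporter ENT1, had 16.8, 17.4 and 17.03 FPKM in the KO AraC libraries, against 19.2, 17.8 and 19.3 FPKM in the KO untreated libraries (log2 -0.13 ± 0.04, adjusted p = 0.026); as TPM its difference was 0.00 beside an all-gene median of 0.09, and without KO AraC replicate 3 its adjusted p was 0.053. SAMHD1, which hydrolyses AraC triphosphate, had 19.8, 18.8 and 21.3 FPKM in the KO AraC libraries, against 23.3, 24.8 and 24.3 FPKM in the KO untreated libraries (log2 -0.27 ± 0.05, adjusted p = 0.0015). Treated values lay below untreated ones. Of the enzymes that remove phosphate or amino groups, NT5C2 (-0.13) and DCTD (-0.16) passed narrowly at limma adjusted p = 0.025 and 0.031, and neither passed as TPM, with plain totals or under quantile normalization. Among exporters ABCC4 fell by 0.32 and ABCC5 rose by 0.35.

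Genes of apoptosis and p53 targets were called about as often as other genes. Of 14 BCL2 family genes 3 rose (21.4%) and 4 fell (28.6%), with 7 not passing. The BH3-only genes BAD and PMAIP1 (NOXA), which promote cell death, rose. BAD had 19.4, 19.9 and 21.2 FPKM in KO AraC libraries, against 12.7, 12.1 and 14.1 FPKM in KO untreated libraries (log2 0.61 ± 0.09). PMAIP1 had 32.2, 31.5 and 40.3 FPKM in KO AraC libraries, against 24.3, 25.02 and 25.4 FPKM in KO untreated libraries (log2 0.46 ± 0.08). BID, another BH3-only gene, had 19.4, 19.4 and 21.4 FPKM in the KO AraC libraries, against 28.1, 28.02 and 29.2 FPKM in the KO untreated libraries (log2 -0.49 ± 0.04). Of the survival genes, BCL2 fell by 0.38 and MCL1 by 0.20, the MCL1 call being lost as TPM, with plain totals and under quantile normalization. BBC3 (PUMA) did not pass (-0.05, 95% interval -0.31 to 0.21). Of 23 p53 targets 7 rose (30.4%) and 4 fell (17.4%), with a median of 0.07. CDKN1A and SESN2 rose, as did TP53I3 (0.93) and DDB2 (0.39), which recognizes damaged DNA. The exonuclease gene AEN fell by 0.53, and MDM2, the p53 ubiquitin ligase, did not pass (-0.06, adjusted p = 0.46).

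AP-1 and immediate early genes were called about as often as other genes. Of 20 tested 4 rose (20%) and 5 fell (25%), beside 20.5% and 26.3% of all genes (median -0.02, and 0.11 as TPM). JUN had 13.03, 14.8 and 12.2 FPKM in the KO AraC libraries, against 3.32, 3.58 and 2.95 FPKM in the KO untreated libraries (log2 1.87 ± 0.09), against FOS at 0.30 (adjusted p = 0.16) and EGR1 at 0.23 (adjusted p = 0.4). The phosphatase DUSP6, a feedback inhibitor of ERK, fell by 0.36. Of 14 NF-kB genes 6 rose (42.9%) and 3 fell (21.4%), with a median of 0.08. The subunits of the alternative arm, RELB and NFKB2, rose. RELB had 7.92, 7.83 and 8.47 FPKM in the KO AraC libraries, against 4.899, 4.64 and 4.84 FPKM in the KO untreated libraries (log2 0.70 ± 0.06), and NFKB2 differed by 0.78. RELA and NFKB1 of the classical arm fell by 0.22 and 0.20.

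Of 36 interferon-stimulated genes 17 rose and 5 fell, with a median of 0.20. MX2 and OAS1 passed the filter only through 1 group each, and without them 16 of 34 rose and 4 fell, with a median of 0.20. OAS3, which makes the activator of RNase L, had 7.19, 7.12 and 7.28 FPKM in the KO AraC libraries, against 3.79, 3.69 and 3.84 FPKM in the KO untreated libraries (log2 0.85 ± 0.06), and the STAT2 gene differed by 0.48. The groups did not overlap at OAS3. BST2, a virus tether, fell by 0.43. Of 17 genes of the glucocorticoid receptor and its targets 4 rose (23.5%) and 5 fell (29.4%), near the 20.5% and 26.3% of all genes (median -0.06, and 0.06 as TPM). TSC22D3 (GILZ) had 22.2, 22.3 and 22.5 FPKM in the KO AraC libraries, against 12.9, 13.2 and 12.3 FPKM in the KO untreated libraries (log2 0.78 ± 0.06), and the receptor NR3C1 did not pass (-0.09). Of 15 circadian clock genes 3 rose (20%) and 4 fell (26.7%), again near the shares of all genes, with the repressor NR1D1 at -0.80 and ARNTL2 at 0.84.

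Most listed regulators of B cell identity fell. Of 19 B lineage transcription factors 13 fell and 2 rose (median -0.25). Without BACH2, which passed the filter only through the treated libraries, 13 of 18 fell and 2 rose (median -0.28). TCF3 (E2A), a founder of the B lineage programme, had 68.98, 73.4 and 69.3 FPKM in the KO AraC libraries, against 122, 119.8 and 119.9 FPKM in the KO untreated libraries (log2 -0.77 ± 0.04), and PAX5 had 75.2, 79.02 and 73.6 FPKM in the KO AraC libraries, against 111, 110.1 and 113 FPKM in the KO untreated libraries (log2 -0.55 ± 0.03). Untreated values were higher in each case. Of 18 genes of the pre-B receptor 13 fell and 5 did not pass (median -0.33), with the surrogate light chain genes IGLL1 and VPREB1 at -0.81 and -0.71. CD79A (-0.06) and CD79B (0.05), which carry the signal of the receptor, did not pass. The summed level of the 12 B cell precursor markers was 639 to 651 FPKM with AraC and 906 to 910 FPKM without.

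Of 18 leukaemia surface antigens 11 fell and 4 rose (median -0.18). The receptor FLT3, a target of the KMT2A fusion, had 304, 305 and 307 FPKM in the KO AraC libraries, against 453, 469 and 475 FPKM in the KO untreated libraries (log2 -0.61 ± 0.03). CD22, a target of antibody therapy, fell by 0.47, whereas IL3RA (CD123) rose by 0.52 and CD24 by 0.42. Of 25 KMT2A fusion targets 15 fell and 2 rose (median -0.21); LMO2 differed by -0.56 and HOXA9 by -0.21, while MEIS1 did not pass (-0.11). Of 14 MHC class II genes 9 fell and 1 rose (median -0.33). CIITA, their master activator, had 5.103, 5.17 and 4.58 FPKM in the KO AraC libraries, against 8.38, 8.103 and 7.61 FPKM in the KO untreated libraries (log2 -0.65 ± 0.06), and HLA-DRA had 169, 170.4 and 186 FPKM in the KO AraC libraries, against 243, 260.1 and 259 FPKM in the KO untreated libraries (log2 -0.53 ± 0.05). MHC class I presentation had 4 of 17 higher (23.5%) and 7 lower (41.2%), beside 20.5% and 26.3% of all genes. Its median of -0.05 was 0.08 as TPM.

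Few myeloid genes were expressed: 5 of 17 listed were tested, and 3 of them rose; CTSG and LYZ passed the filter only through the treated libraries, so nothing is read from the count. CTSG had 1.29, 1.02 and 1.93 FPKM in the KO AraC libraries, against 0.0921, 0.0946 and 0.04604 FPKM in the KO untreated libraries and LYZ 1.46, 2.58 and 1.77 FPKM in the KO AraC libraries, against 0.717, 0.589 and 0.143 FPKM in the KO untreated libraries. Both stayed at low levels, with treated libraries above untreated ones (log2 1.70 ± 0.22 and 1.34 ± 0.26). The 10 myeloid markers summed to 2.93 to 4.21 FPKM with AraC and 1.58 to 2.08 FPKM without, with MPO, ELANE and CD14 under 0.1 FPKM in all 6 libraries, and their part in these rises was not tested. In the Ikaros family and its NuRD partners 7 of 17 fell (41.2%) and 1 rose (5.9%), beside 26.3% and 20.5% of all genes. Their median of -0.11 was 0.02 as TPM. IKZF1 itself fell by 0.53 (SE 0.04, adjusted p = 1.2e-06), and the NuRD subunits MTA1 and HDAC2 fell by 0.40 and 0.25. The remodeller gene CHD4 did not pass (-0.07, 95% interval -0.21 to 0.08). Of 40 adhesion and actin genes 9 rose (22.5%) and 15 fell (37.5%), beside the same all-gene shares (median -0.06, and 0.06 as TPM). The integrin ITGA4 differed by -0.71 and the GTPase RHOB by 1.23.

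Most genes at least 2-fold higher lay outside these lists, whereas most protein-coding genes at least 2-fold lower were on one. Of the 156 genes at least 2-fold higher, 26 were on a list, and of the 60 at least 2-fold lower, 23. Among protein-coding genes alone these were 26 of 130 higher and 22 of 33 lower. The share of all tested genes on a list was not counted. These counts therefore do not say that listed genes changed more or less often than others. The largest changes of non-coding genes rest on few reads. AL035681.1, an antisense RNA within L3MBTL2, had 115, 86 and 88 reads in KO AraC and 16, 17 and 17 in KO untreated libraries, the most of the 10 that were named. SNORA13, a small nucleolar RNA within EPB41L4A-AS1, had 0 reads in each KO AraC library and 10, 4 and 8 in KO untreated libraries, and MIR210 had 0, 1 and 1 reads in KO AraC and 12, 2 and 7 in KO untreated libraries. MIR3149 reached at most 4 reads in a library. Without a statement of strand, reads of an antisense RNA and its partner cannot be told apart.

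Most genes called in KO were called in the same direction in WT. Of the 2545 genes higher in KO, 1969 (77.4%) were also called higher in WT and 13 lower. Of the 3273 lower in KO, 2489 (76.0%) were called lower in WT and 41 higher. The difference itself (KO effect minus WT effect) passed for 361 genes: it was positive for 118 (0.949%) and negative for 243 (1.95%). The counts depended on single libraries. Leaving out any of the 6 WT libraries, KO AraC replicate 1 or KO untreated replicate 2 or 3 gave 34 to 69 positive and 100 to 140 negative differences, and leaving out any of the remaining 3 gave 94 to 115 and 164 to 233.

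**Figure D3:**
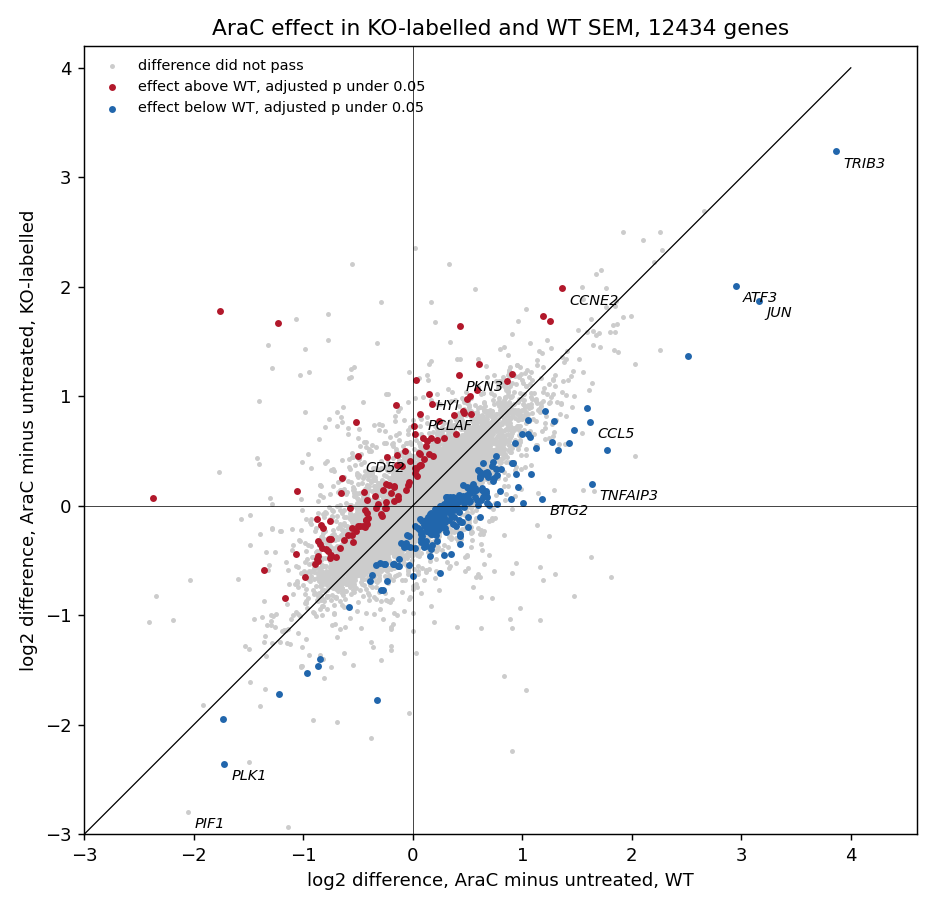
Log2 difference between AraC and untreated libraries in WT (horizontal axis) and in KO-labelled cells (vertical axis) for 12434 genes, with the diagonal where both effects are equal. Red and blue points are the 118 genes with a KO effect above and the 243 with a KO effect below that in WT (limma adjusted p under 0.05); TNFAIP3, JUN, BTG2 and ATF3 lie to the right of the diagonal.

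Genes of inflammatory and immediate early signalling gave the largest negative differences. TNFAIP3 (A20), an inhibitor of NF-kB signalling, had 4.17, 4.78 and 4.196 FPKM in the KO AraC libraries, against 3.86, 3.87 and 3.51 FPKM in the KO untreated libraries, and 9.71, 9.79 and 10.3 FPKM in the WT AraC libraries, against 2.61, 2.74 and 3.25 FPKM in the WT untreated libraries. It rose in WT (1.64) and did not pass in KO (0.20), and the difference was -1.44 ± 0.11 (SE, adjusted p = 0.00025). JUN rose in both, by 1.87 in KO and 3.17 in WT (difference -1.29 ± 0.12, adjusted p = 0.00094). BTG2, an antiproliferative gene on the p53 and immediate early lists, had 18.7, 19.6 and 19.2 FPKM in the KO AraC libraries, against 18.3, 17.8 and 18.7 FPKM in the KO untreated libraries, and 18.4, 16.5 and 20.5 FPKM in the WT AraC libraries, against 8.01, 7.67 and 7.798 FPKM in the WT untreated libraries. KO libraries overlapped at this gene and untreated KO cells stood at the level of treated WT cells (difference -1.11 ± 0.09, adjusted p = 0.00027).

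By list, 5 of 14 NF-kB genes had a negative difference (TNFAIP3, RELB, ICAM1, NFKB2 and NFKB1), and the list medians were 0.08 in KO and 0.57 in WT. Among 20 AP-1 and immediate early genes 4 were negative (JUN, BTG2, DUSP1 and KLF6), with medians of -0.02 in KO and 0.22 in WT. Of 17 glucocorticoid receptor targets 4 were negative (TXNIP, DUSP1, SGK1 and SMAP2) and 1, CXCR4, positive. Of 22 stress response genes TRIB3 (-0.63) and ATF3 (-0.94) were negative and VLDLR (0.58) positive. The shares over all genes stand above, and members of a list are not independent of each other.

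Some mitotic genes fell further in KO. Of 59 G2/M genes 7 had a negative difference, with medians of -0.47 in KO and -0.38 in WT. PLK1 had 8.56, 8.26 and 8.81 FPKM in the WT AraC libraries, against 30.00, 28.2 and 29.9 FPKM in the WT untreated libraries, a difference of -0.64 ± 0.07 (adjusted p = 0.0013). AURKA (-0.60), CENPE (-0.56), CCNB1 (-0.49), SGO2 (-0.34), KIF2C (-0.23) and KIF20A (-0.21) were the others. In snoRNA hosts, SNHG17 (-0.78), SNHG8 (-0.56), SNHG12 (-0.56) and ZFAS1 (-0.42) were negative and DANCR (0.38) positive.

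Positive differences included genes of S phase. CCNE2 had 35.7, 33.6 and 32.8 FPKM in the WT AraC libraries, against 12.6, 12.9 and 13.2 FPKM in the WT untreated libraries, so that treated KO and WT libraries were close and untreated KO libraries lay lower (difference 0.62 ± 0.07, adjusted p = 0.0015). PCLAF, a PCNA-binding protein, rose in KO (0.84) and differed by 0.77 from WT, and its KO AraC values of 18.1, 16.8 and 24.1 FPKM were highest in replicate 3. RRM2 (0.28), LIG1 (0.33), FEN1 (0.30) and RFC4 (0.24) were also positive, and MCM5 negative (-0.32). SLC29A1 fell less in KO than in WT (difference 0.29, adjusted p = 0.028), and DCK showed no difference that passed (0.12, 95% interval -0.10 to 0.34). CD52, a surface antigen whose gene overlaps UBXN11, had 9.998, 9.66 and 9.34 FPKM in the KO AraC libraries, against 6.02, 8.27 and 6.63 FPKM in the KO untreated libraries, and 12.5, 12.9 and 15.05 FPKM in the WT AraC libraries, against 20.5, 17.5 and 19.7 FPKM in the WT untreated libraries. It rose in KO and fell in WT (difference 0.95 ± 0.15, adjusted p = 0.011).

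**Figure D4:**
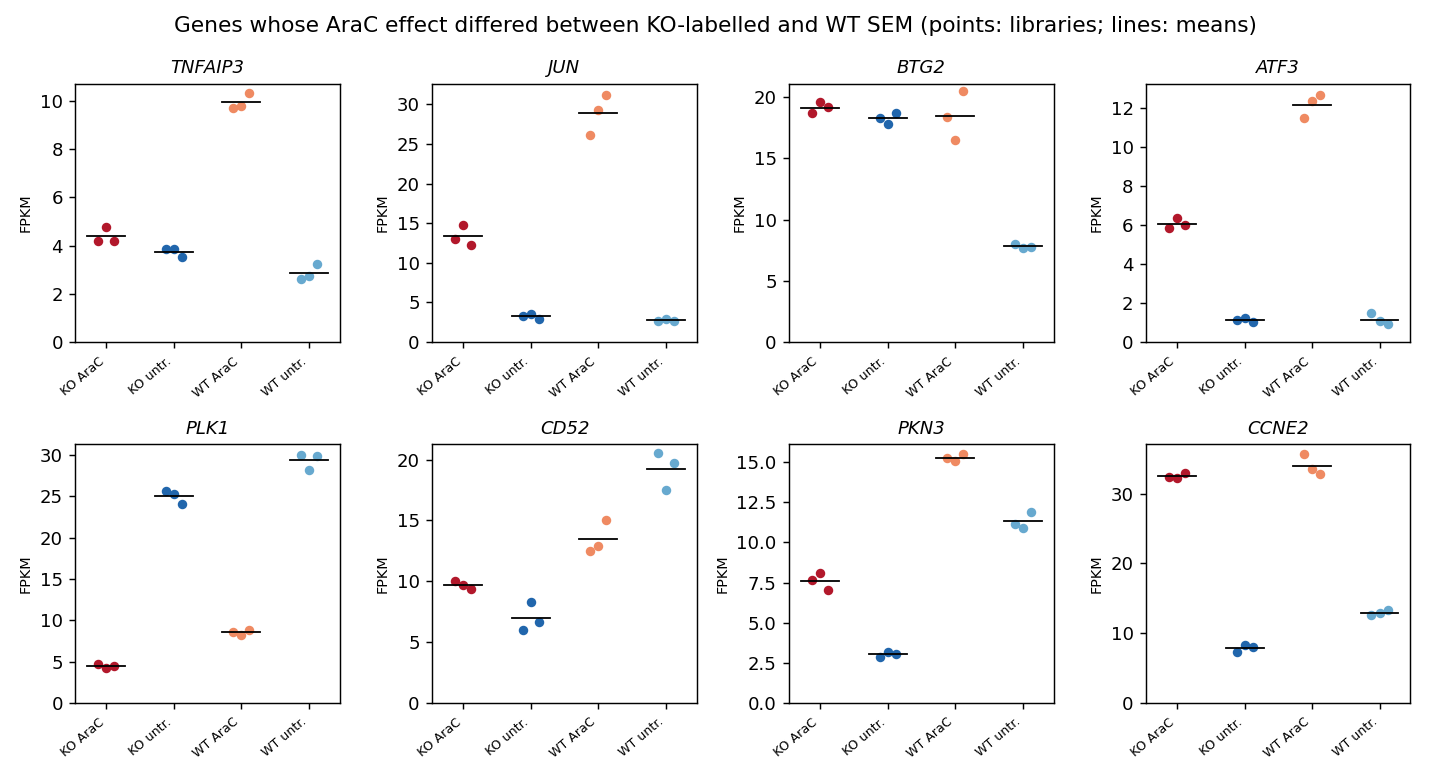
FPKM in each library of the 4 groups (KO AraC, KO untreated, WT AraC and WT untreated, "untr." standing for untreated) for 8 genes whose AraC effect differed between KO-labelled and WT cells, with bars at the means and axes from 0. In TNFAIP3, JUN and ATF3 the WT AraC libraries stand above the KO AraC libraries. Untreated levels are near each other in ATF3, somewhat higher in KO in JUN (means of 3.28 and 2.77 FPKM), and higher in every KO library in TNFAIP3. In CCNE2 the treated levels are near each other while KO untreated libraries lie lower.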

How the data were processed

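RNA from 12 SEM libraries in 4 labelled groups of 3 was sequenced. The authors deposited FPKM per gene; fastp, HISAT2 2.0.5, featureCounts 1.5.0-p3, hg38 and GRCh38 are named in the submitters' processing notes, and strandedness was not stated. All 58735 gene identifiers matched GENCODE release 29, and 16 names that had turned into dates were restored by identifier. FPKM times gene length and 1 inferred size per library gave whole reads for 100% of values above 0, within 0.001 reads; how the authors set that size, which was not the read total, was not stated. Recovered depth was 16342979 to 22733932 reads per library.

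log2(FPKM + 0.5) of all 12 libraries entered a limma 3.58.1 model (R 4.3.3) with group means, a variance trend and 8 residual degrees of freedom. A fold change on this scale understates that of low genes. Contrasts were AraC minus untreated in KO and in WT and their difference, two-sided, with Benjamini-Hochberg adjustment over 12434 genes at 0.05. The fit was also run on simulated reads with known changes, drawn with the same dispersion for every gene and no deviant library. That run checked the code and does not measure error rates in these data. Alternatives covered the pseudocount, filter, scaling, limma-voom, KO libraries alone, a replicate block and leaving out each library.

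The 46 gene lists (5 of them cell type markers) and the named genes were chosen with earlier results of these data known. Named were the 15 protein-coding genes with the highest and 15 with the lowest log2 difference (mean of at least 5 FPKM, no overlap of groups), 5 non-coding genes each way, up to 5 list members with the smallest adjusted p, all members of 3 lists (Ikaros and NuRD, cytarabine metabolism, BCL2) and 10 differences from WT each way. Other list members were named after their values were seen. Of 274 named genes 96 overlap another tested gene, whose reads may not be separable. Promoters came from RefSeq (GRCh38.p14), matched by Ensembl identifier or symbol for 8695 tested genes. SE is the standard error of limma, and SD is over 3 libraries. A few genes are not reported here.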

Additional observations from a re-analysis of the deposited data

Results flagged for a closer look

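For 20 protein-coding genes, the 10 with the most positive and the 10 with the most negative difference by the naming rule, the test of the difference between genotypes (KO effect minus WT effect, log2) passed (limma, Benjamini-Hochberg adjusted p from 0.00025 to 0.034). What lies behind these differences was not tested.

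The positive ones were CD52 (0.95), HYI, a hydroxypyruvate isomerase homologue (0.88), the kinase PKN3 (0.77), PCLAF (0.77), FAM69B (0.75), the small GTPase RAB15 (0.69), MOSPD3 (0.68), the adaptor DOK3 (0.67), PRPS2 (0.63) and CCNE2 (0.62). PKN3 had 7.66, 8.06 and 7.03 FPKM in the KO AraC libraries, against 2.89, 3.18 and 3.04 FPKM in the KO untreated libraries, and 15.3, 15.1 and 15.5 FPKM in the WT AraC libraries, against 11.2, 10.9 and 11.9 FPKM in the WT untreated libraries. It rose in both genotypes and its level in KO cells lay below that in WT cells, treated or not. FAM69B (-0.12 in KO, -0.88 in WT) and DOK3 (-0.17 and -0.84) fell in WT and did not pass in KO. PRPS2 rose in KO (0.65) and differed by 0.02 in WT. The bodies of CD52, HYI, PKN3 and FAM69B overlap other tested genes.

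The negative ones were TNFAIP3 (-1.44), JUN (-1.29), BTG2 (-1.11), ATF3 (-0.94), IGLL5 (-0.87), the co-chaperone DNAJB2 (-0.85), the chemokine CCL5 (-0.85), TXNIP, an inhibitor of thioredoxin (-0.82), and the transcription factors SNAI1 (-0.79) and KLF10 (-0.79). ATF3 had 5.85, 6.33 and 5.99 FPKM in the KO AraC libraries, against 1.14, 1.24 and 1.02 FPKM in the KO untreated libraries, and 11.50, 12.3 and 12.7 FPKM in the WT AraC libraries, against 1.499, 1.07 and 0.9001 FPKM in the WT untreated libraries. TXNIP rose in both, by 0.51 in KO and 1.33 in WT. CCL5 had 3.91, 3.81 and 3.86 FPKM in the KO AraC libraries, against 2.22, 2.11 and 1.88 FPKM in the KO untreated libraries, and 5.75, 4.48 and 5.37 FPKM in the WT AraC libraries, against 1.49, 1.34 and 1.22 FPKM in the WT untreated libraries. Its treated KO values lay below the treated WT values, with no overlap between treated and untreated libraries in either genotype.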

How the results depend on the processing

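The counts of higher and lower genes in KO (2545 and 3273) moved by over 1.5 times with scaling: they were 3971 and 1758 as TPM, 3901 and 1898 with plain read totals, and 4044 and 1788 with plain read totals and KO AraC library 3 left out, an alternative chosen after seeing the data. A filter at 5 FPKM gave 1498 higher genes. Leaving out a KO library gave 2238 to 2373 higher and 2818 to 3296 lower. The 156 genes at least 2-fold higher became 268 and 85 with pseudocounts of 0.1 and 1, 51 with the 5 FPKM filter, 292 with limma-voom and 252 with that added alternative; the 60 at least 2-fold lower became 32 with the filter, which tests fewer genes.

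Differences from WT numbered 118 positive and 243 negative. They were 247 and 395 with limma-voom, 492 negative as TPM and 414 negative with plain totals, and 34 to 115 and 100 to 233 with a library left out. With a replicate block they were 32 and 55. The labels do not say whether same-numbered libraries were paired. Correlations of deviations from group means were -0.04 to 0.11 for same-numbered and -0.14 to 0.14 for differently numbered libraries, which can neither show nor exclude pairing. The KO calls were 2472 and 3226 with the replicate block.

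Among named genes the KO difference turned positive under quantile normalization for TXN (0.00456), RPS7 (0.0104), RPL10 (0.0477), PDIA3 (0.0612) and HDAC1 (0.0981), and as TPM, where the all-gene median was 0.09, for SLC29A1 (0.00021). Over all alternatives 3955 of the KO gene results kept direction and side of the threshold, 90 lost the call, 51 gained one and 6 reversed. Of the results for the 20 named differences from WT, 374 kept and 41 lost the call, 6 of them with the replicate block (ATF3, HYI, FAM69B, MOSPD3, SNAI1 and KLF10). The cause was not tested. The 3 libraries per group limit small differences, and low genes rest on few reads.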

Other observations

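Further genes at least 2-fold higher or lower lay outside the lists, named here after their values were seen. TCF19, a transcription factor of G1/S, had 70.7, 69.1 and 71.2 FPKM in the KO AraC libraries, against 30.1, 30.5 and 30.04 FPKM in the KO untreated libraries (log2 1.21 ± 0.04). ULBP1, a stress ligand of the NK receptor NKG2D, had 6.64, 5.67 and 5.998 FPKM in the KO AraC libraries, against 1.87, 1.695 and 2.17 FPKM in the KO untreated libraries (log2 1.45 ± 0.12). Both were higher in every treated library. The autophagy genes OPTN (1.14) and TP53INP2 (1.61), the matrix genes SPARC (1.24) and ECM1 (1.24), the epoxide hydrolase EPHX1 (1.28) and PTK7 (1.01), a pseudokinase of Wnt signalling, rose as well. KPNA2, a nuclear import receptor, had 47.9, 47.9 and 54.2 FPKM in the KO AraC libraries, against 118, 121 and 124 FPKM in the KO untreated libraries (log2 -1.27 ± 0.05), and SAPCD2 (-1.15), CTGF (-1.24) and SLC17A9 (-1.01) fell. All of these passed limma's Benjamini-Hochberg threshold.

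For 49 of the 12434 genes AraC was called in opposite directions in KO and WT and the difference itself passed. Of them 37 fell in KO and rose in WT, and 12 rose in KO and fell in WT. The cytidine deaminase APOBEC3G had 18.6, 18.4 and 19.6 FPKM in the KO AraC libraries, against 20.05, 19.9 and 20.9 FPKM in the KO untreated libraries, and 11.3, 11.7 and 12.03 FPKM in the WT AraC libraries, against 8.09, 8.15 and 7.96 FPKM in the WT untreated libraries (difference -0.61 ± 0.05, limma adjusted p = 0.00047). HBEGF (-0.70), a growth factor, SPRY4 (-0.69) and DUSP10 (-0.71), inhibitors of MAP kinase signalling, and MALT1 (-0.36), a protease upstream of NF-kB, were among the 37. DPYSL2 (0.52), the haem synthesis enzyme CPOX (0.41) and GRN (0.34), progranulin, were among the 12. MALT1, for example, changed by -0.16 in KO and by 0.20 in WT. As TPM the all-gene medians were 0.09 in KO and 0.16 in WT, against -0.03 and -0.02 on the deposited scale. The direction of changes this small can depend on the scale, and directions of the 49 were not compared across scales.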
